A study of Mus musculus with 24 samples.

Results

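The wild-type mouse forelimb bud was compared between embryonic stages E10.5 and E11.5 by total RNA sequencing. The 3 libraries titled E11.5 WT FL were set against the 3 titled E10.5 WT FL, so 6 of the 24 libraries of the series enter the comparison. All 6 came from forelimb buds of strain C57/Bl6 with genotype U11flx/flx::Prrx1-Cre-. Both groups thus carry floxed alleles of Rnu11, the gene for the U11 RNA of the minor spliceosome, and neither carries the Cre that would delete them in limb mesenchyme, so "wild-type" here means floxed without Cre. The other libraries are hindlimb buds of the same genotype and buds of embryos with Prrx1-Cre, called mutant (Mut); they were used to estimate the spread and for 2 comparisons of the stage change. The sources used here do not say whether the 3 samples of a group are separate embryos or pools. The p-values therefore measure the spread between libraries of a group, whatever each library holds. That spread was pooled over all 8 groups of the series and is not that of the 6 compared libraries alone.

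Between these stages the limb bud grows out under signals from its edges. The apical ectodermal ridge supplies fibroblast growth factors (FGFs), the posterior margin supplies Sonic hedgehog, and retinoic acid from the flank marks the proximal part. Hox genes of the HoxA and HoxD clusters are switched on in order along the chromosome, the last ones in the future hand, while mesenchyme begins to condense into cartilage and muscle precursors arrive from the somites.

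Levels are length-corrected transcript shares (TPM), a value per gene, rescaled so that the median log2 level over 3518 genes with at least 5 TPM in each of the 24 libraries was equal. Changes are log2 fold changes of TPM + 1, E11.5 against E10.5, with the standard error (SE) of the limma fit, and "rose" or "fell" means a Benjamini-Hochberg adjusted p under 0.05. Because 1 is added, changes of genes near or below 1 TPM are understated. Of 12399 genes tested, 4813 passed (38.8%), with 2774 higher at E11.5 (22.4%) and 2039 lower (16.4%); the median change over all tested genes was 0.06. Of these, 302 rose and 191 fell by at least 1 log2 unit. On the TPM scale as deposited each change was shifted by a median of -0.39 over these genes, and 2723 passed, 223 higher and 2500 lower, so 8.19% of calls were rises in place of 57.6%. Counts of members are therefore to be read beside 22.4% and 16.4%, as a description only. The lists and their members were chosen with earlier results of these data known, so the comparison is not a test. List medians on both scales are given where the sign differs. Lists are counted over members that passed the filter on low values (at least 1 TPM in 3 of the 24 libraries), for example 19 of 35 listed cartilage genes, 47 of 54 tendon and matrix genes and 9 of 20 myeloid markers. A two-sided exact permutation test of 3 against 3 libraries cannot give a p below 0.1, so single genes were tested only in the fit across genes.

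The libraries differed in ways that go with stage. The labels of the E10.5 libraries record 3' trimming of 3 nt and those of the E11.5 libraries hold no such note, so a difference in trimming cannot be told apart from stage. Nuclear protein-coding genes held between 19.9% and 22.3% of TPM in the E10.5 libraries and between 14.7% and 17.3% in the E11.5 ones, and structural RNAs such as 7SK and 7SL held 28.6% to 50.4%. The first E10.5 library stood apart: it had 16133 genes above 0 against 21095 to 26302 in the other 5, and it was the lowest of its stage for 64.1% of the genes that rose, against 50.9% of all tested genes. It was the highest of its stage for 48% of the genes that fell, against 33.2% of all. Leaving it out, 4338 genes passed (2335 higher, 2003 lower). The third E10.5 library was also unusual. Long intergenic RNAs and symbols without an annotation match held 16.4% of its TPM, against 3.19% to 4.81% in the other 5. Its share of structural RNAs was the lowest, 28.6%. Without the third E10.5 library 4706 genes passed (2823 higher, 1883 lower). Correlations between replicates lay between 0.922 and 0.960 within E10.5 and between 0.966 and 0.978 within E11.5. The limb label held: Tbx5, the forelimb transcription factor, had 2.25 to 10.1 TPM, while the hindlimb factors Tbx4 and Pitx1 stayed at or below 0.676 and 0.173 TPM. Prrx1, a mesenchymal factor, had 28.0 to 65.4 TPM and did not pass (0.40 ± 0.27 SE, limma adjusted p = 0.251). Rnu11 was at 251, 687 and 1063 TPM at E10.5 and at 1287, 1253 and 1344 TPM at E11.5, which did not pass (1.19 ± 0.49, limma adjusted p = 0.0634).

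Late Hox genes of the future hand rose, and earlier HoxD genes fell. Of 13 tested members of the posterior HoxA and HoxD list, 6 rose and 3 fell, with a median of 0.80 (0.33 on the deposited scale and 0.45 without E10.5 replicate 1). Over its 11 protein-coding members alone, with TPM summed anew over such genes, 4 rose and 3 fell and the median was 0.03. Hoxa13 (chr6:52257694-52260880, mm10/GRCm38, minus strand), a gene of the future hand, had 0.0911, 3.56 and 7.40 TPM at E10.5 and 18.2, 11.62 and 11.499 TPM at E11.5. Every E11.5 library was above every E10.5 library. Hoxa13 rose by 2.06 ± 0.61 (SE) with a limma adjusted p of 0.013. Hoxd13 (chr2:74668310-74671599, plus strand), its counterpart in HoxD, had 1.47, 3.94 and 10.7 TPM at E10.5 and 16.6, 14.2 and 11.4 TPM at E11.5. It rose by 1.51 ± 0.49 (adjusted p = 0.0203), again without overlap. Evx2, which lies next to Hoxd13 and shares its regulation in the digits, rose by 1.61 ± 0.27 from at most 0.557 TPM to at least 2.13 TPM. Hottip, a long noncoding RNA next to Hoxa13, rose by 1.12 ± 0.28. Both calls of Hoxa13 and Hoxd13 were lost without E10.5 replicate 1 (1.23 with adjusted p = 0.0908, and 0.98 with 0.125). They were also lost without E11.5 replicate 1 (adjusted p = 0.0516 and 0.0668) and in a fit to the 6 libraries alone (0.058 and 0.0626).

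Within HoxD the change ran from fall to rise along the cluster. Hoxd4 fell by 1.32 ± 0.24, Hoxd8 by 1.31 ± 0.16, Hoxd9 by 1.20 ± 0.21 and Hoxd10 by 0.80 ± 0.17. Hoxd9, for example, had 7.55, 3.89 and 4.50 TPM at E10.5 and 1.69, 1.58 and 1.75 TPM at E11.5. Hoxd11 had 8.17, 10.1 and 13.2 TPM and then 11.2, 9.29 and 8.51 TPM, with overlap and no call (-0.09 ± 0.23, adjusted p = 0.791). Hoxd12 was at 2.23, 5.36 and 8.62 TPM and then at 12.6, 8.37 and 8.53 TPM, and did not pass (0.87 ± 0.43, adjusted p = 0.111). In HoxA, Hoxa11, which marks the forearm region, stayed at 7.62 to 11.4 TPM over all 6 libraries (0.07 ± 0.19, adjusted p = 0.791). Of 8 tested anterior HoxA and HoxD genes none rose and 2 fell, Hoxd4 among them, with a median of -0.24.

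**Figure D1:**
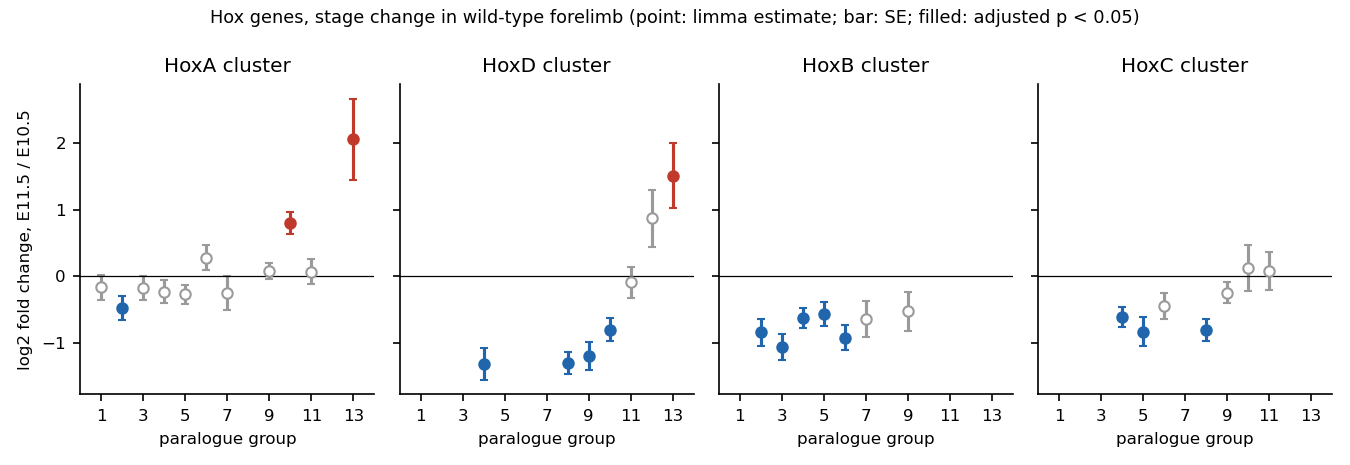
Log2 fold change (E11.5 against E10.5, wild-type forelimb) of each tested Hox gene by paralogue group, 1 panel per cluster. Points are limma estimates, bars are SE, and filled points passed an adjusted p of 0.05. HoxD runs from -1.32 at Hoxd4 to 1.51 at Hoxd13, while no tested HoxB or HoxC gene rose.

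Genes of the HoxB and HoxC clusters, which pattern the trunk, were low, and many fell. Of 14 tested members 8 fell and none rose, with a median of -0.62. Hoxb3 had 1.95, 2.31 and 3.00 TPM at E10.5 and 0.477, 0.929 and 0.525 TPM at E11.5, a fall by 1.06 ± 0.20 (limma adjusted p = 0.000624). Hoxb6 fell by 0.92 ± 0.19, from at least 1.14 TPM to at most 0.293 TPM. Hoxb2 fell by 0.84 ± 0.20, or by 0.55 without E10.5 replicate 1, its highest library. Hoxc5 fell by 0.83 ± 0.22, a call lost without E11.5 replicate 1 (adjusted p = 0.0552). The summed level of 27 markers of the trunk and of organs outside the limb was 27.1, 9.64 and 9.59 TPM at E10.5 and 3.72 to 5.50 TPM at E11.5, so no E11.5 library reached the E10.5 ones. Of 10 tested members 1 fell and none rose; 3 fell without E10.5 replicate 2 or E10.5 replicate 3, and none without E11.5 replicate 1, without E11.5 replicate 3 or on the deposited scale. Alb was at 0 in all 3 E10.5 libraries, and Myl2, Nkx2-2, Nkx2-5, Olig2 and Uncx were at 0 in all 3 E11.5 libraries. The part of such tissue in the HoxB and HoxC fall was not tested.

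Several genes of the proximal limb and of the retinoic acid response fell. Of 22 tested members 8 fell and none rose, with 5 falling when E11.5 replicate 1 was left out. Crabp1, a cytoplasmic retinoic acid binding protein, had 134, 69.0 and 71.1 TPM at E10.5 and 28.0, 21.5 and 26.1 TPM at E11.5. The groups did not overlap, and Crabp1 fell by 1.75 ± 0.30 (limma adjusted p = 0.000297), 3.62-fold in the mean level. Crabp2, its relative, fell by 1.09 ± 0.16 from 157 TPM or more to 83.8 TPM or less. Rarb, a retinoic acid receptor that is itself induced by retinoic acid, fell by 1.18 ± 0.32. Meis1, a homeodomain factor of the proximal limb, had 15.9, 16.3 and 12.4 TPM and then 6.20, 8.83 and 7.64 TPM, a fall by 0.90 ± 0.21 (adjusted p = 0.00355). Meis2, which acts with it, fell by 0.64 ± 0.20 (adjusted p = 0.0164), but it missed the threshold without E10.5 replicate 2 (0.0684), E11.5 replicate 1 (0.0703) or E11.5 replicate 3 (0.0561). Shox2, a gene of the proximal skeleton, was at 14.7, 27.4 and 23.4 TPM and then at 32.8, 38.0 and 37.2 TPM. The stages did not overlap, but Shox2 did not pass (0.74 ± 0.42, limma adjusted p = 0.174). It passed in a fit to the 6 libraries alone (0.0492) and in none of the fits with a library left out. In wild-type hindlimb it rose by 2.13 (limma adjusted p = 0.000818). The list's median was -0.06, with 10 members above and 12 below 0; it was -0.36 without E10.5 replicate 1 and -0.40 on the deposited scale.

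Of the signals that drive outgrowth, Fgf8, Fgf10, Shh, Grem1 and Hand2 were not called. Fgf8, the main ridge FGF, had 13.1, 7.55 and 10.2 TPM at E10.5 and 10.503, 5.27 and 7.34 TPM at E11.5, with overlap (-0.39 ± 0.39, limma adjusted p = 0.454). Fgf10, the mesenchymal FGF that sustains the ridge, had 1.20 to 1.78 TPM and then 0.728 to 1.17 TPM, without overlap but past no threshold (-0.39 ± 0.17, adjusted p = 0.0717). Shh was at 0.199, 0.556 and 1.26 TPM and then at 0.597, 0.325 and 0.144 TPM (-0.27 ± 0.24, adjusted p = 0.399). Grem1, the BMP antagonist that links both centres, and Hand2, which lies upstream of Shh, gave -0.18 ± 0.29 and 0.10 ± 0.31, both with overlap. Lmx1b, the dorsal determinant, gave 0.34 ± 0.31 and Msx1, a BMP-responsive factor of distal mesenchyme, 0.53 ± 0.23 (adjusted p = 0.0774). On the deposited scale Hand2 and Lmx1b pointed down (-0.33 and -0.05). These genes are expressed in parts of the bud, and in whole buds fewer expressing cells and less RNA per cell cannot be told apart, here or below.

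Other members of these pathways did change. Of 25 tested FGF and ridge genes 7 rose and 2 fell, with a median of 0.28 that was -0.05 on the deposited scale. It was 0.093 without E10.5 replicate 1, 0.17 without E10.5 replicate 2 and 0.13 without E11.5 replicate 1, and 1 gene fell without E10.5 replicate 2 or 3 or E11.5 replicate 2 or 3. Fgf18, an FGF of mesenchyme around the skeleton, rose by 1.52 ± 0.29 from 0, 0.307 and 0.850 TPM to 3.36, 2.39 and 2.87 TPM (limma adjusted p = 0.000629). Fgfr2, whose protein receives ridge and mesenchymal FGFs, rose by 0.72 ± 0.14 from 14.3 to 15.7 TPM to 23.5 to 26.5 TPM, and Jag2, a Notch ligand of the ridge, by 0.83 ± 0.17. Dusp6, a phosphatase induced by FGF signalling, fell by 0.81 ± 0.23, from 40.6, 29.2 and 36.01 TPM to 22.3, 17.3 and 19.1 TPM. Il17rd was the other member that fell, while Spry2 rose. Both of these calls were lost in most fits with 1 library left out. Among 28 hedgehog and anteroposterior genes 3 rose and 4 fell, with a median of 0.08 (-0.28 on the deposited scale and -0.14 without E10.5 replicate 1). The count was 6 and 1 without E10.5 replicate 3, and 2 fell without E11.5 replicate 2 or without E11.5 replicate 3. Boc and Gas1, co-receptors of Sonic hedgehog, rose by 0.85 ± 0.21 and 0.56 ± 0.14, as did Kif7, a ciliary regulator of Gli factors, by 0.61 ± 0.13. Alx4, an anterior factor that restrains posterior signalling, fell by 0.86 ± 0.22, from at least 3.24 TPM to at most 1.57 TPM.

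Many bone morphogenetic protein (BMP) genes rose on the rescaled values. Of 29 tested members 12 rose and none fell, with a median of 0.43 (0.28 without E10.5 replicate 2); on the deposited scale 5 were higher and 2 lower, with a median of -0.0001. Gdf5, a ligand that marks forming joints, rose by 1.09 ± 0.23, from at most 0.260 TPM to 0.647, 2.25 and 1.98 TPM. Bmpr1b, the receptor of early cartilage, had 0.794, 1.27 and 1.26 TPM and then 3.47, 3.32 and 3.37 TPM, a rise by 1.06 ± 0.17 (limma adjusted p = 0.000154). Fst, which binds activins and BMPs, rose by 1.25 ± 0.23, and Smoc2, a matricellular protein of the SPARC family, by 1.36 ± 0.26.

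The Wnt list moved in both directions: 14 of 44 tested members rose and 3 fell, with a median of 0.13 that was -0.17 on the deposited scale; without E10.5 replicate 1, 5 fell. Wnt11 had 1.20, 1.07 and 2.03 TPM at E10.5 and 4.69, 5.89 and 5.80 TPM at E11.5, a rise by 1.42 ± 0.22 (limma adjusted p = 0.000132). Wnt7b, an ectodermal ligand, rose by 1.34 ± 0.21. The extracellular inhibitors split, with Wif1 and Dkk2 up by 1.01 ± 0.26 and 0.93 ± 0.20. Sfrp1, a secreted inhibitor that binds Wnt ligands, had 7.14, 7.68 and 5.97 TPM and then 1.01, 1.60 and 1.57 TPM; it fell by 1.73 ± 0.29 (adjusted p = 0.000254). Rspo4, which potentiates Wnt signalling, fell by 1.63 ± 0.31, and Ror1, a receptor for Wnt5a, by 0.67 ± 0.17.

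Of 49 tested transcription factors of limb mesenchyme 10 rose and 7 fell, near the shares of all genes, with a median of 0.24 (-0.11 on the deposited scale and 0.05 without E10.5 replicate 1). The number that fell was 4 without E10.5 replicate 3, E11.5 replicate 1 or E11.5 replicate 3. Tbx18 had 4.68, 6.75 and 6.46 TPM and then 12.997, 16.2 and 16.6 TPM, a rise by 1.23 ± 0.29 (limma adjusted p = 0.00309). Ebf1 and Ebf3, factors of connective tissue precursors, rose by 1.36 ± 0.35 and 1.05 ± 0.20, and Hic1, a marker of mesenchymal progenitors, by 1.28 ± 0.24. Nr2f1, a nuclear receptor, fell by 1.00 ± 0.27 and Zbtb16, a factor of the proximal limb skeleton, by 0.68 ± 0.20.

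Many cartilage genes rose. Of 19 tested members 10 rose and 1 fell, with a median of 0.58; on the deposited scale 5 rose and 1 fell, with a median of 0.17. Without E10.5 replicate 1, 8 rose and 2 fell. Col2a1 (chr15:97975602-98004695, minus strand), the main cartilage collagen, had 2.96, 5.04 and 6.36 TPM at E10.5 and 15.4, 18.3 and 17.7 TPM at E11.5. The E11.5 libraries lay well above the others, and the rise was 1.69 ± 0.25 (limma adjusted p = 8.5e-05), 3.57-fold in the mean level. Col9a3 and Col9a2, which coat collagen II fibrils, rose by 1.76 ± 0.31 and 1.39 ± 0.29 from below 0.35 TPM in every E10.5 library, and Lect1, chondromodulin, by 1.28 ± 0.30. Sox9, the factor that commits cells to cartilage, rose less, by 0.62 ± 0.24 from 1.36, 1.92 and 2.38 TPM to 4.12, 3.32 and 2.78 TPM, with an adjusted p of 0.0463. That call was lost without E10.5 replicate 1 (0.159), E10.5 replicate 2 (0.0776), E11.5 replicate 1 (0.161) or E11.5 replicate 2 (0.0836). Hapln1, a link protein of the hyaluronan matrix, was the member that fell, by 0.98 ± 0.25 from 4.99 TPM or more to 3.31 TPM or less.

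Matrix genes of tendon and connective tissue gave the largest one-sided count: 23 of 47 rose and none fell, with a median of 0.56 (0.17 on the deposited scale, with 12 higher and 0 lower). Lum, the small proteoglycan lumican, had 0.0532, 1.34 and 2.04 TPM at E10.5 and 6.06, 13.7 and 14.7 TPM at E11.5. It rose by 2.59 ± 0.54 (limma adjusted p = 0.00127), without overlap. Kera, keratocan, whose gene neighbours Lum, rose by 2.28 ± 0.32, from at most 0.255 TPM to at least 3.71 TPM. Col6a3, a chain of collagen VI, rose by 1.83 ± 0.24 and Ogn, osteoglycin, by 1.45 ± 0.23.

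**Figure D2:**
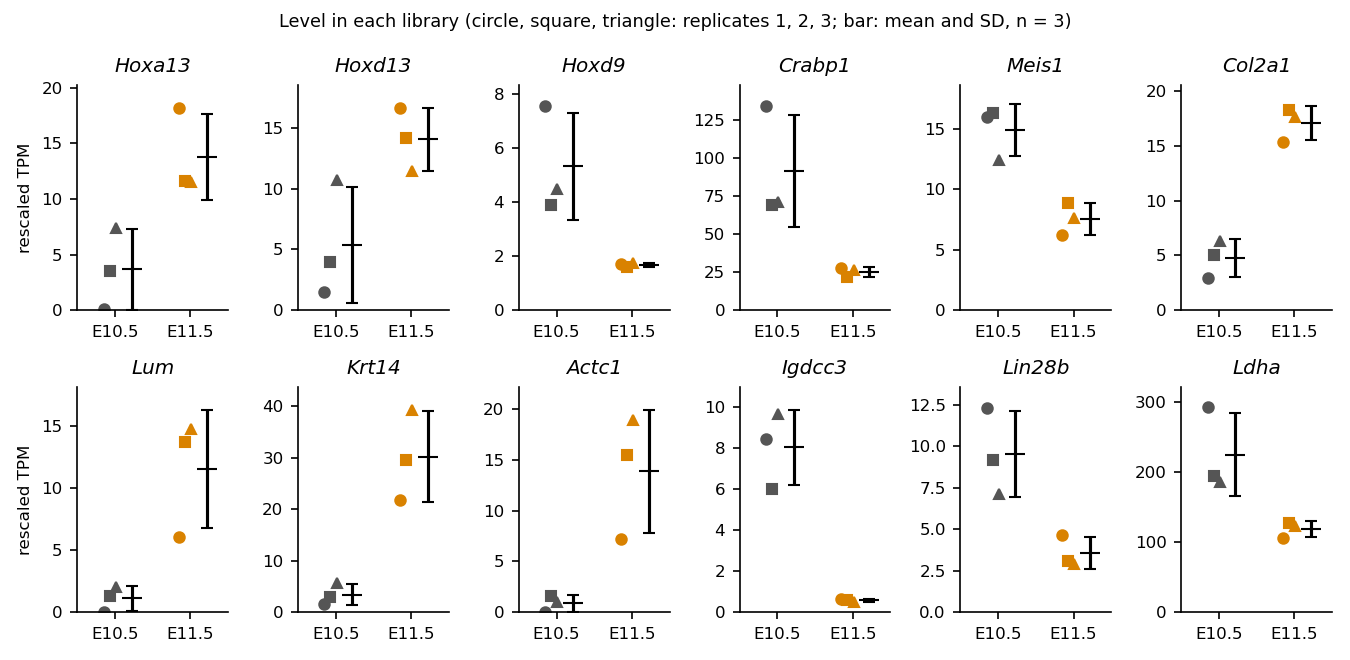
Rescaled TPM of 12 genes in each of the 6 libraries, E10.5 on the left and E11.5 on the right of each panel, with mean and SD (n = 3). In all 12 panels the 2 stages do not overlap, and E10.5 replicate 1 (circle) is at an extreme of its stage in 10.

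Several genes that mark an early developmental state fell. Of 26 tested members of a heterochronic list, which holds Lin28 genes and known let-7 targets, 11 fell and none rose, with a median of -0.32 (-0.20 without E10.5 replicate 3). LIN28 proteins block the maturation of let-7 microRNAs, and let-7 in turn represses Lin28 mRNAs through sites in their 3' untranslated regions (UTRs). The mature let-7 sequence and 1 site in each of 5 members are shown because the seed and its matches define which mRNAs can be paired. Igdcc3 and Lin28a hold 2 CTACCTCA sites and Igf2bp1 holds 3, and the first of each is printed. Capitals mark the seed (bases 2 to 8) in the microRNA, and the 7 letters pairing with it in the sites. The microRNA is from RefSeq (GRCm38.p6), sites are from the GRCm38 genome and GENCODE M21 3' UTRs, written 5' to 3' on the gene's strand.
mmu-let-7a-5p: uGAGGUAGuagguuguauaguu
mmu-let-7g-5p: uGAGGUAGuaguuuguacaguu
Igdcc3 (chr9:65185708-65185729, plus): gtgactctcagcacCTACCTCa
Lin28a (chr4:134005189-134005210, minus): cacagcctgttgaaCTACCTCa
Lin28b (chr10:45381022-45381043, minus): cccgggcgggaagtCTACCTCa
Prtg (chr9:72912559-72912580, plus): cctctgctgaatagCTACCTCa
Igf2bp1 (chr11:95961778-95961799, minus): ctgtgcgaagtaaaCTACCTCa

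Igdcc3, an immunoglobulin family membrane protein and the gene of this group with the largest fall, had 8.45, 6.04 and 9.66 TPM at E10.5 and 0.664, 0.598 and 0.525 TPM at E11.5. The stages were far apart in every library, and the fall was 2.48 ± 0.38 log2 units (limma adjusted p = 0.000128), 13.5-fold in the mean level. Lin28b had 12.3, 9.17 and 7.14 TPM and then 4.66, 3.12 and 2.89 TPM, a fall by 1.20 ± 0.25 (adjusted p = 0.00141). Lin28a fell by 1.27 ± 0.36 from 5.02, 2.48 and 2.06 TPM to 0.663, 0.642 and 0.684 TPM (adjusted p = 0.00975, or 0.0556 without E10.5 replicate 1). Prtg, protogenin, a relative of Igdcc3, fell by 1.24 ± 0.27. Igf2bp1, an RNA-binding protein with 3 such sites, was not called and pointed up (0.50, adjusted p = 0.062); it was named here after its value was seen.

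The sites were counted in all protein-coding genes with an annotated 3' UTR. Of 13 heterochronic members that hold CTACCTCA, the site with an A after the seed match, 8 fell, and of 13 members without it 3 fell; their medians were -0.56 and -0.22. Members without it can still hold the 7 letters CTACCTC: Hmga1 and E2f5 do and fell, and Arid3b, Plagl2 and Nme6 do and were not called. Of 1122 tested genes with these 7 letters, with or without the A, 18.4% fell, and of 9545 genes without them 16.9%. Over 10667 tested genes with a 3' UTR 17.0% fell, with a median of 0.06. Genes with 1 CTACCTCA site did not stand apart from that, with 15.5% of 374 falling and a median of 0.08. Of 23 genes with 2 or more sites 8 fell and 4 rose, and of 7 genes with 3 or more 4 fell and none rose (median -0.56). The 7 include Trim71, Igf2bp1 and Nr6a1 of the list, all 3 named after their values were seen. Trim71, a known let-7 target, fell by 0.56 (limma adjusted p = 0.0235), but the call was lost without E10.5 replicate 1 (0.0615), E10.5 replicate 3 (0.0667), E11.5 replicate 2 (0.0677) or E11.5 replicate 3 (0.0874). The genes with many sites have longer UTRs (a median of 4769 bases for 2 or more sites against 1209 bases overall), and the let-7 level itself was not analysed here.

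Several glycolysis genes fell. Of 31 tested glycolysis and hypoxia genes 11 fell and 1 rose, with a median of -0.23, and their summed level was 1565 to 1806 TPM at E10.5 and 996 to 1146 TPM at E11.5. Ldha, which makes lactate from pyruvate, had 293, 195 and 186 TPM at E10.5 and 105, 127 and 123 TPM at E11.5. It fell by 0.89 ± 0.16 (limma adjusted p = 0.000376), without overlap. Pkm, pyruvate kinase, fell by 0.94 ± 0.12 from 296 TPM or more to 189.9 TPM or less, and Pgam1, phosphoglycerate mutase, by 0.90 ± 0.12. Eno1 and Eno3, forms of enolase, fell by 1.31 ± 0.25 and 1.46 ± 0.20. Ankrd37, a known target of hypoxia-inducible factor, was the member that rose, by 0.90 ± 0.21, from 0.893 to 2.42 TPM to 3.15 to 4.73 TPM. Several of these genes are known targets of that factor. The form of its core motif that was searched is ACGTG, which reads CACGT on the other strand. Of 8476 tested protein-coding genes with a RefSeq promoter, 25.8% hold it in the 250 bases before a start site; of 29 list members with a promoter 19 do (65.5%), and 9 of the 11 that fell. The exceptions among the 11 that fell were Eno1 and Pdk1. A window of each holds the form GCGTG, which was not counted. The call of Pdk1 (-0.80, limma adjusted p = 0.0268) was lost without E10.5 replicate 1 (-0.35, 0.2). It was also lost without E11.5 replicate 1 (0.114) or E11.5 replicate 2 (0.0504). A gene counts if any of its start sites has a match. Because the list was written to hold hypoxia genes, setting its share beside that of all genes is not a test. The palindrome CACGTG, which other factors bind, holds both motifs and counts as 2 matches. The windows of Ldha (5 matches, 2 such palindromes), Pgk1 (2 matches) and Pgam1 (1 match) are given as examples of high-level genes that fell, on the plus strand of GRCm38.p6 from RefSeq, with the motif in capitals. The window of another Ldha start site, not shown, has 0 matches. A match is a description of these letters and says nothing of binding.
Ldha (chr7:46845554-46845803): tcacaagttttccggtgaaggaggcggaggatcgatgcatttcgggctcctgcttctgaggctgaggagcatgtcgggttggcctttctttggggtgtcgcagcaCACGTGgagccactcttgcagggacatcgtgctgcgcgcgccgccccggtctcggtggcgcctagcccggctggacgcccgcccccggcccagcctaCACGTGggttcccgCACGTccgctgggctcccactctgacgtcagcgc
Pgk1 (chrX:106186850-106187099): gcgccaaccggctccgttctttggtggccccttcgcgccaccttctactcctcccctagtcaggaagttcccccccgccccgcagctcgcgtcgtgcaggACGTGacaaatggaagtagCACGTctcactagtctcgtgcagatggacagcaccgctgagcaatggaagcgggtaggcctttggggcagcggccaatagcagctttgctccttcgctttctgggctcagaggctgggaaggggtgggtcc
Pgam1 (chr19:41911621-41911870): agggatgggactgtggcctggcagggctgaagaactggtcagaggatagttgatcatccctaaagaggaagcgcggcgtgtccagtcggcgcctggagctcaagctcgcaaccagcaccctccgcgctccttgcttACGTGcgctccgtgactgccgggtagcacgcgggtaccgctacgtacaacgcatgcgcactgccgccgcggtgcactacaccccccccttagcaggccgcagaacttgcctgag

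In the replication and G1/S list and in the G2/M list more genes fell than rose. Of 66 tested replication-dependent histone genes, held in neither list, 15 rose and 3 fell, with a median of 0.43. Over all tested genes 22.4% rose and 16.4% fell. Of 45 tested replication and G1/S genes 18 fell and 5 rose, with a median of -0.10; on the deposited scale none rose and 19 fell. Without any 1 of the E11.5 libraries 3 rose. Cdc6, which loads the replicative helicase, fell by 1.15 ± 0.15 from 13.02, 11.97 and 11.6 TPM to 6.27, 3.85 and 4.997 TPM (limma adjusted p = 2.75e-05). The D-type cyclins went opposite ways: Ccnd3 fell by 0.84 ± 0.11, while Ccnd2 rose by 1.01 ± 0.27, from 8.49, 13.3 and 20.0 TPM to 36.5, 24.3 and 23.8 TPM. Rrm2, an enzyme of nucleotide supply, fell by 0.72 ± 0.13.

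Of 46 G2/M genes 16 fell and 5 rose, with a median of 0.02 (-0.42 on the deposited scale, where none rose and 16 fell). None rose and 16 fell with protein-coding genes summed anew, and 2 rose without E11.5 replicate 1 or E11.5 replicate 3. Bub1b, a spindle checkpoint kinase, had 35.8, 41.8 and 34.6 TPM and then 18.9, 18.5 and 20.0 TPM, a fall by 0.93 ± 0.10 (limma adjusted p = 4.33e-06). Tpx2, which nucleates spindle microtubules, fell by 0.78 ± 0.10 and Kif20a, a mitotic kinesin, by 0.71 ± 0.08. Mki67 and Top2a, common proliferation markers, passed with overlapping libraries (0.42 and 0.35 higher), but on the deposited scale they were at -0.06 and -0.13. Their limma adjusted p values of 0.0352 and 0.0247 rose to 0.218 (a change of 0.22) and 0.0994 without E10.5 replicate 1, to 0.213 (0.25) and 0.098 without E11.5 replicate 1, and to 0.051 and 0.0846 without E11.5 replicate 3. Without E10.5 replicate 3 that of Top2a was 0.0568. Of 16 inhibitors of cyclin-dependent kinases and exit genes 5 rose and none fell, with a median of 0.34; on the deposited scale none passed, with a median of 0.0083. Cdkn1c, an imprinted inhibitor that slows division, had 44.7, 48.5 and 48.7 TPM and then 78.8, 121 and 129 TPM, a rise by 1.16 ± 0.24 (adjusted p = 0.00135, or 0.095 on the deposited scale). Rbl1, the retinoblastoma relative p107, rose by 0.56 ± 0.10.

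Of 31 genes of the insulin-like growth factor axis and of imprinted growth 8 rose and 6 fell, with a median of 0.15 (-0.33 on the deposited scale and -0.065 without E10.5 replicate 1). Without any 1 of the other 5 libraries 4 fell. Mest, a paternally expressed gene of growing mesoderm, had 301, 363 and 330.2 TPM at E10.5 and 119.7, 125 and 119 TPM at E11.5, a fall by 1.44 ± 0.18 (limma adjusted p = 2.46e-05). Peg10 and Usp29, also expressed from the paternal allele, fell by 1.16 ± 0.23 and 0.92 ± 0.21. Igfbp5, which binds insulin-like growth factors, and Irs2, an adaptor of their receptor, rose by 1.13 ± 0.23 and 0.94 ± 0.19.

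Among 23 cell death genes 5 rose and 3 fell, with a median of 0.02 (-0.35 on the deposited scale, and -0.12, -0.05 and -0.11 without E10.5 replicate 1, E10.5 replicate 2 and E11.5 replicate 1). The survival genes Bcl2 and Bcl2l1 rose by 0.82 ± 0.15 and 0.53 ± 0.13. Mcl1, another survival gene, fell by 0.43 ± 0.11. Of 36 adhesion and ephrin genes 11 rose and 4 fell, with a median of 0.32 that was -0.01 on the deposited scale; 6 rose without E10.5 replicate 1 (median 0.18) or without E11.5 replicate 1. Efna1, an ephrin ligand, had 1.00, 2.54 and 2.91 TPM and then 8.48, 7.69 and 6.86 TPM, a rise by 1.52 ± 0.23 (limma adjusted p = 0.000107). Itgb8, an integrin that activates latent TGF-beta, rose by 1.09 ± 0.16, while Itga9 and Itga6, integrin chains that bind tenascin and laminin, fell by 0.91 ± 0.19 and 0.57 ± 0.15. Of 32 cues for axons and vessels 11 rose and 4 fell, with a median of 0.23 (-0.17 on the deposited scale and -0.02 without E10.5 replicate 1). The number that rose was 7 without E10.5 replicate 1, E10.5 replicate 2 or E11.5 replicate 2 and 5 without E11.5 replicate 3, and 2 fell without E11.5 replicate 1. Robo2, a receptor for Slit repellents, rose by 1.49 ± 0.34, from 6.46, 16.5 and 9.58 TPM to 32.2, 28.1 and 30.4 TPM; an annotated small RNA gene lies inside it. Hgf, the factor that draws muscle precursors into the limb, fell by 1.33 ± 0.30, from 7.44, 10.7 and 6.24 TPM to 2.92, 2.34 and 2.46 TPM (adjusted p = 0.00239).

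**Figure D3:**
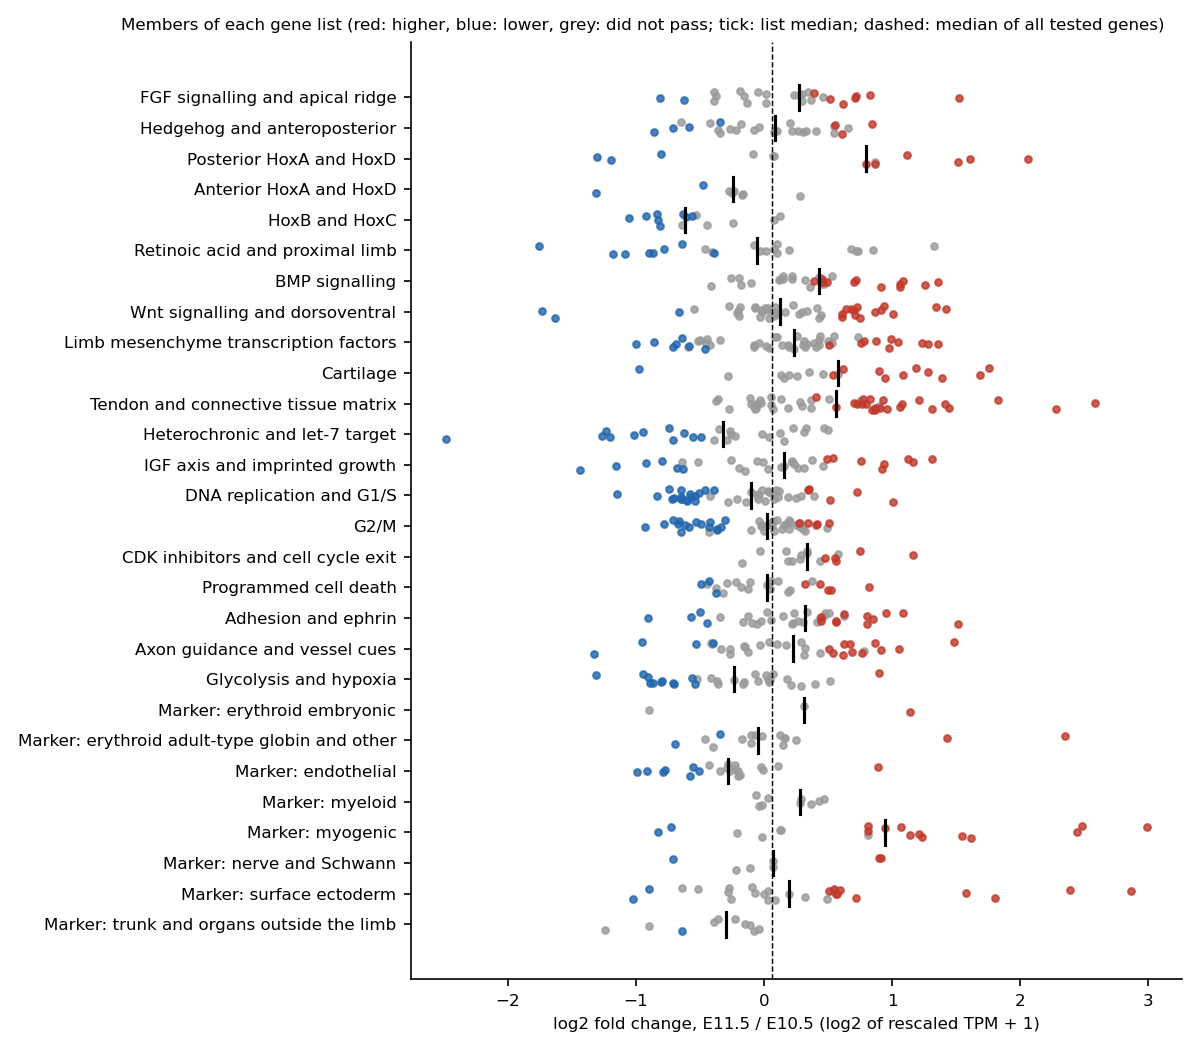
Log2 fold change (E11.5 against E10.5) of the tested members of 28 gene lists. Red points rose, blue points fell, grey points did not pass; ticks are list medians and the dashed line is the median of all tested genes, 0.06. The medians of the myogenic (0.95), posterior Hox (0.80), cartilage (0.58) and tendon (0.56) lists lie to the right. Those of HoxB and HoxC (-0.62) and the heterochronic list (-0.32) lie to the left. The medians of the myogenic, posterior Hox, cartilage and tendon lists keep their sign on the deposited scale. Others above 0 do not, such as those of the BMP list (0.43 and -0.0001) and the FGF list (0.28 and -0.05). That scale shifts changes downward, so it cannot test the sign of the medians to the left.

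The levels of other cell types changed with stage and go beside the results above. Muscle genes mostly rose: of 19 tested myogenic markers 12 rose and 2 fell, with a median of 0.95 (0.72 on the deposited scale), and the summed level of 29 markers was 15.2 to 26.3 TPM at E10.5 and 41.3 to 83.3 TPM at E11.5. Actc1, cardiac alpha-actin, the first sarcomeric actin of embryonic muscle, had 0, 1.599 and 1.05 TPM and then 7.19, 15.5 and 18.9 TPM, a rise by 2.99 ± 0.69 (limma adjusted p = 0.00275). Acta2, smooth muscle actin, rose by 2.92 ± 0.77. Tnnt1, Myl1 and Tnnc1, parts of the slow and embryonic contractile apparatus, rose by 2.49 ± 0.44, 2.44 ± 0.46 and 1.62 ± 0.35. The 2 members that fell are expressed in migrating precursors. Pax3 fell by 0.83 ± 0.19, from 1.53, 2.23 and 1.61 TPM to 0.744, 0.618 and 0.355 TPM, and Met, the receptor for Hgf, fell by 0.73 ± 0.15. Lbx1, another gene of these cells, named after its values were seen, had 0.451 to 1.16 TPM over the 6 libraries and did not pass (-0.21 ± 0.19, adjusted p = 0.381).

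Among surface ectoderm markers, keratins of stratified epidermis rose. Of 27 tested markers 10 rose and 2 fell, with a median of 0.20 (-0.22 on the deposited scale); without E10.5 replicate 1 the count was 6 and 1. Krt14, a basal keratin of stratified epidermis, had 1.66, 3.03 and 5.68 TPM at E10.5 and 21.7, 29.6 and 39.2 TPM at E11.5, a rise by 2.87 ± 0.43 (limma adjusted p = 0.000101). Krt5, its partner, rose by 1.81 ± 0.32, Krt17 by 2.39 ± 0.35 and Krt15 by 1.58 ± 0.29. Cldn6, a tight junction protein of early epithelia, fell by 1.02 ± 0.25 from 15.6, 10.04 and 10.4 TPM to 5.12, 4.90 and 5.87 TPM. Krt18, a keratin of simple epithelium, fell by 0.90 ± 0.34 (adjusted p = 0.0455), but each of the 6 leave-outs took it over the threshold, with adjusted p from 0.0577 without E10.5 replicate 3 to 0.134 without E10.5 replicate 1. Epcam, a general epithelial marker named after its values were seen, had 6.61 to 9.19 TPM over the 6 libraries and did not pass (-0.26 ± 0.25, adjusted p = 0.424). Cxcl14, a chemokine, and Gabrp, a receptor subunit, rose by 2.24 ± 0.34 and 2.15 ± 0.30.

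Several endothelial genes fell. Of 21 tested markers 7 fell (4 without E11.5 replicate 1) and 1 rose, with a median of -0.28, and the summed level of 25 markers was 52.3 to 68.8 TPM and then 38.1 to 44.1 TPM. Ramp2, Aplnr, Emcn and Egfl7, genes of vessel walls, fell by 0.99 ± 0.16, 0.91 ± 0.21, 0.79 ± 0.22 and 0.78 ± 0.19. Erg, an endothelial factor also found in forming cartilage, was the member that rose (0.89 ± 0.24, limma adjusted p = 0.00793, or 0.58 with 0.0521 without E10.5 replicate 1).

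Of 3 tested embryonic globins 1 rose and none fell; on the deposited scale none rose and 1 fell, and in the fit to the 6 libraries none passed. Hbb-y, an embryonic beta-globin, had 957, 1131 and 1147 TPM and then 1376, 3113 and 3118 TPM, a rise by 1.14 ± 0.31 (limma adjusted p = 0.00754, or 0.0582 in the fit to the 6 libraries). The other two did not pass, with 0.31 ± 0.25 for Hbb-bh1 (-0.17 on the deposited scale) and -0.90 ± 0.37 for Hba-x, an embryonic alpha-globin (adjusted p = 0.325 and 0.063); Hba-x fell on the deposited scale and without E10.5 replicate 1 or E11.5 replicate 3. The adult globins Hbb-bs and Hbb-bt, near-identical copies whose reads may be split arbitrarily, rose by 2.35 ± 0.62 and 1.43 ± 0.41. Over the other erythroid markers 2 of 16 rose, both of them these globins, and 2 fell. Tfrc, the transferrin receptor, fell by 0.70 ± 0.14. Klf1, an erythroid factor, fell by 0.35 ± 0.13 (adjusted p = 0.0463), a call kept only when E11.5 replicate 3 was the library left out (0.0687 to 0.201 without the others, the last without E11.5 replicate 1). Of 9 myeloid markers none passed. Among 7 nerve and Schwann cell markers 2 rose, Ngfr and Erbb3, genes of Schwann cell precursors, by 0.91 ± 0.19 and 0.90 ± 0.14, and Gap43, a gene of growing axons, fell by 0.71 ± 0.20. The part of these cell types in the other results was not tested.

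**Figure D4:**
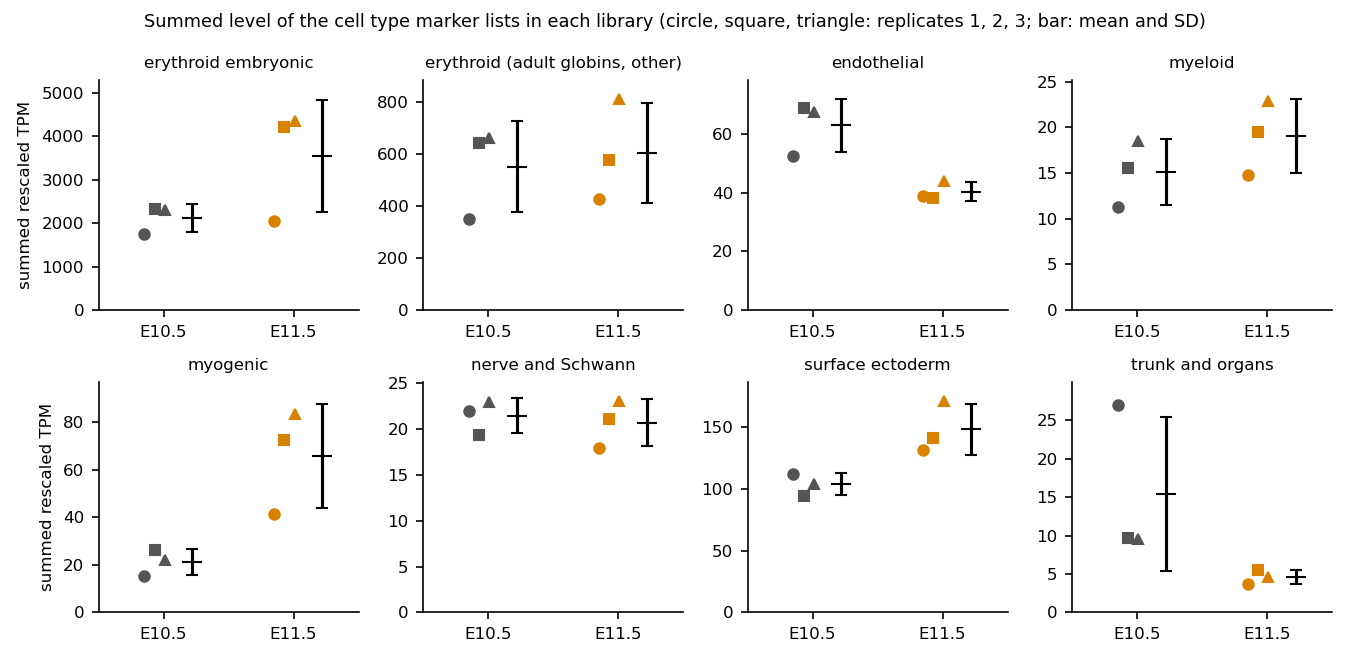
Summed rescaled TPM of 8 lists of cell type markers in each library, with mean and SD (n = 3). The myogenic sums are 15.2 to 26.3 TPM at E10.5 and 41.3 to 83.3 TPM at E11.5, the endothelial sums 52.3 to 68.8 and 38.1 to 44.1 TPM, and E10.5 replicate 1 holds the highest sum of trunk and organ markers, 27.1 TPM.

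The largest single changes outside the lists were of mixed kind. Lars2, mitochondrial leucyl-tRNA synthetase, had 293, 591 and 16035 TPM at E10.5 and 1.95, 1.61 and 1.78 TPM at E11.5, with no overlap. It fell by 8.98 ± 1.48, and its E10.5 level differed widely between libraries. Whether the reads assigned to it are its mRNA was not tested. Bola2, an iron-sulfur cluster protein, fell by 1.79 ± 0.22, Lix1 by 1.75 ± 0.26 and Rpl27, a ribosomal protein gene, by 1.65 ± 0.20. Mt1 and Mt2, neighbouring metallothioneins, fell together by 1.65 ± 0.31 and 1.46 ± 0.20. Pkdcc, a secreted kinase needed for long bones, fell by 1.52 ± 0.37, from 60.7, 32.6 and 39.1 TPM to 7.90, 21.8 and 16.2 TPM (limma adjusted p = 0.00359). Als2cr12 fell by 1.57 ± 0.44, a call lost without E11.5 replicate 2 (adjusted p = 0.0606). Suco, an ossification factor, rose by 1.95 ± 0.50, from 10.1 to 15.8 TPM to 62.5, 31.3 and 83.7 TPM.

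The hindlimb, which forms later than the forelimb, was sampled at the same stages, with the same difference in the trimming notes. In wild-type hindlimb 5075 of 12399 genes passed (40.9%). The stage changes correlated across genes with Pearson's r = 0.842 and Spearman's rho = 0.804, given as a description since genes are not independent replicates. Of the genes called in both limbs, 3401 had the same direction and 3 the opposite. In a test of the difference itself 2 genes of 12399 passed (0.0161%; limma, with 847 at an unadjusted p under 0.05), Gm28037 and Gria2. Genes named above had their own hindlimb values: Hoxa13 2.58, Krt14 2.32, Lum 2.05, Igdcc3 -2.21, Lin28a -2.70 and Crabp1 -1.96. Actc1, Ogn and Igfbp5 gave 0.38, 0.29 and 0.14 in the hindlimb and 2.99, 1.45 and 1.13 in the forelimb, differences that did not pass (adjusted p = 0.622, 0.489 and 0.557). In the mutant forelimb 35.4% of genes passed between the stages. Against its stage change 8 genes passed (0.0645%, with 1578 at an unadjusted p under 0.05).

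**Figure D5:**
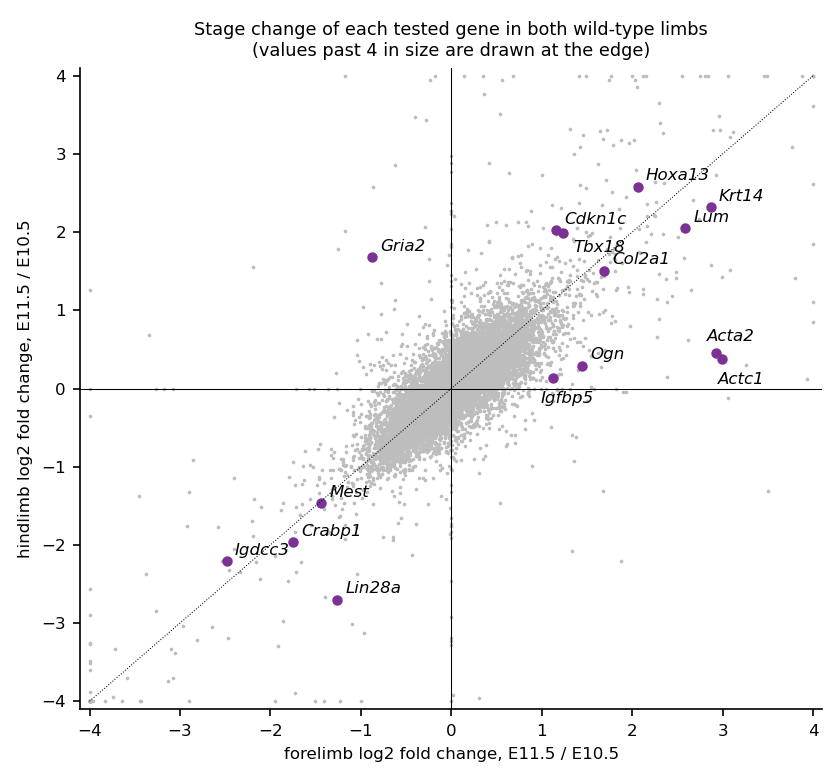
Log2 fold change from E10.5 to E11.5 of each tested gene in wild-type forelimb (horizontal) and hindlimb (vertical), with the diagonal dotted. Changes past 4 in size are drawn at the edge. Krt14 (2.87 and 2.32) and Igdcc3 (-2.48 and -2.21) lie near the diagonal, Actc1 (2.99 and 0.38) lies below it, and Gria2 (-0.87 and 1.68) points opposite ways in the limbs.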

How the data were processed

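Total RNA of limb buds was sequenced on a NextSeq500 after TruSeq stranded total RNA preparation, per the labels' protocols. The authors deposited 1 table per library of TPM (transcript shares corrected for length) per gene symbol; per the submitters' processing notes reads were aligned with HISAT2 to mm10, while for the quantifier, the annotation and the use of strand nothing is stated (not given in the sources used here). TPM keeps no depth, so the number of reads behind each value is unknown. Log2(TPM + 1) was computed for 38019 symbols, libraries were set to a common median over 3518 genes with at least 5 TPM in all 24, and 12399 genes with at least 1 TPM in 3 libraries were tested. limma 3.58.1 (R 4.3.3) with a mean-variance trend was fitted over all 8 groups of 3 libraries, which share 1 estimate of the spread (16 residual degrees of freedom), with Benjamini-Hochberg adjustment over all genes and a threshold of 0.05. The steps were tested on simulated data. Of the symbols, 36287 matched GENCODE M21, which gave gene types and positions. Tables and figures were made with pandas 2.3.3 and matplotlib 3.10.9.

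The genes named are a core set, the 12 largest rises and falls among well-expressed protein-coding genes without overlap, and up to 4 passing members of each of 28 lists in each direction; others are said to be chosen after their values were seen. The members and lists were chosen with earlier results of these data known. Alternatives covered the pseudocount (0.1), the filter, the scale, the libraries fitted, protein-coding genes summed anew, library weights, a block for the replicate number, and leaving out single libraries.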

Additional observations from a re-analysis of the deposited data

Results flagged for a closer look

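The stage change of the wild-type forelimb differed from that of the wild-type hindlimb in 2 genes by the limma test of the difference. Gria2, a glutamate receptor subunit, changed by -0.87 in the forelimb and 1.68 in the hindlimb, a difference of -2.55 (adjusted p = 0.00817). The predicted gene Gm28037 was at 61.5, 106 and 56.2 TPM in the E10.5 wild-type forelimb and was listed at 0 in the 3 E11.5 ones, in all 6 wild-type hindlimb libraries and in the 3 E10.5 mutant forelimb libraries. Its fitted difference from the hindlimb, -6.18 (adjusted p = 0.00212), thus rests on 3 libraries. Both calls held in each of 12 fits with 1 library left out.

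The comparison with the mutant forelimb uses the same wild-type forelimb libraries as that with the hindlimb. In it 8 genes differed. Gm28037 again differed, by -6.35 (adjusted p = 0.00144), as did Eda2r, a receptor of the tumour necrosis factor family, by -1.69 (-0.08 in wild type and 1.61 in the mutant, adjusted p = 0.00181). Gm17530 differed by 6.63 (3.26 in wild type and -3.38 in the mutant, adjusted p = 0.00619). In the wild-type forelimb it had 0, 1.24 and 1.03 TPM at E10.5 and 31.5, 43.5 and 1.74 TPM at E11.5. E11.5 replicate 3 was thus near the E10.5 level, and the wild-type rise rests mostly on E11.5 replicates 1 and 2. In the mutant forelimb it had 27.9, 25.1 and 10.1 TPM and then 1.66, 0.872 and 0.496 TPM. Gm28037, Eda2r and Gm17530 held in each of 12 fits with 1 library left out. Wsb2 differed by -1.08 (adjusted p = 0.00932, or 0.0521 without E11.5 Mut FL replicate 2). Snora78 (3.54, adjusted p = 0.0385), Ap4s1 (0.91, adjusted p = 0.0385), Prkar2a (-1.21, adjusted p = 0.0499) and Rab8a (-0.91, adjusted p = 0.0499) held in only 2, 1, 1 and 1 of the 12 fits.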

How the results depend on the processing

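Of the stage comparison's 4813 genes past the threshold, the other settings gave 2723 on the deposited scale and 2289 in a fit to the 6 libraries alone; without 1 library the count ran from 3660 to 4706, lowest without E11.5 replicate 1. The remaining settings gave counts within 1.5 times of 4813. Of 158 genes named with values, 134 passed, 119 of them in each fit with 1 library left out, 123 in the fit to the 6 libraries and 106 on the deposited scale in the same direction. The comparison with the hindlimb gave 2 genes, 9 with no filter, 1 with protein-coding genes summed anew, 10 with library weights and 2 to 15 with 1 library left out; 3 passed with the compared or the WT libraries alone. The comparison with the mutant gave 8 genes, 3 on the deposited scale, 2 with the compared libraries alone, 4 with protein-coding genes summed anew, 397 with library weights and 3 to 9 with 1 library left out. The cause of these shifts was not tested.

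On the deposited scale Mki67 and Top2a turned to -0.056 and -0.13. Among genes not called, it turned Ap4s1 (-0.29), Hbb-bh1 (-0.17), Hand2 (-0.33), Hoxa11 (-0.36), Lmx1b (-0.051), Prrx1 (-0.069) and Tbx4 (-0.16), and library weights turned Hand2 (-0.13) and Tbx4 (-0.081). With 1 library left out, the change ran from -0.51 to 0.0032 for Grem1, from -0.16 to 0.33 for Hand2, from -0.070 to 0.20 for Hoxa11, from -0.23 to 0.078 for Hoxd11, from -0.12 to 0.088 for Tbx4 and from -0.091 to 0.79 for Tbx5.

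With the replicate number as a block 4858 genes passed; same-numbered E10.5 and E11.5 libraries had residual correlations of -0.122, 0.055 and -0.002, so the numbers were not taken to pair the samples. The depth behind each TPM is unknown, and changes of genes near 1 TPM are understated.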
